A study of Mus musculus with 40 samples.

Results

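The calmodulin-dependent protein kinases were followed through cells that carried different forms of PAX5. The 9 genes are Camk2a, Camk2b, Camk2d, Camk2g, Camk1, Camk1d, Camk4, Camkk1 and Camkk2. Every probe set whose annotated symbol on the platform was exactly one of these names was taken, which gave 26 probe sets of 8 genes out of 45037 probe sets tested and 17097 genes. Camkk1 had no probe set under its symbol alone and is not analysed here. Camk2d was chosen by its log2 signals in these same arrays, where it differed between the constructs. Its levels are therefore described without a test, and tests are given for the 22 probe sets of the other 7 genes. The other kinases, and the gene lists and markers used below, were also chosen with earlier results of these data known. Their p-values may therefore not be independent of that choice.

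All 40 arrays hold total RNA of transduced J558LuM cells, a mouse plasmacytoma line, which as a plasma cell tumour has its own Pax5 silenced. The tested cells carried PAX5-P80R (6 arrays), PAX5-G183V (7), PAX5-G183S (7) or PAX5-Δ2-6 (6). They were set against cells with wild-type PAX5 (PAX5-WT, 7 arrays) and against cells with the construct labelled MIR (7 arrays), taken here as the empty vector that the design names. PAX5 is the transcription factor that holds B cells in their lineage and is switched off in plasma cells. P80R lies in its paired DNA-binding domain and G183S and G183V lie in its octapeptide motif, which recruits co-repressors; the labels name the last construct only as Δ2-6. The study is about PAX5 alleles inherited in families with leukaemia of B cell precursors, and its arrays set each altered protein beside the intact one. Each array came from its own transduction of this 1 line, so errors and p-values measure the spread between transductions and not between animals.

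Calcium that enters a cell binds calmodulin, and calcium-calmodulin switches on these kinases. The kinases of the CaMKII branch (Camk2a, Camk2b, Camk2d and Camk2g) assemble into large rings whose subunits phosphorylate each other and so stay active after the calcium has gone. The other branch is a cascade, in which the upstream kinases Camkk1 and Camkk2 phosphorylate Camk1, Camk1d and Camk4. Camk2a and Camk2b are known mainly from neurons, whereas Camk2d and Camk2g are made in many tissues. In B lymphocytes, calcium rises after the antigen receptor is bound.

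The values are log2 signals, on which a difference of 1 is a doubling. Array medians lay between 4.21 and 4.27, and 11 of the 26 probe sets had a mean above 4.22, the median of all probe-set means. The line showed its plasma cell origin, with 6 of 6 measured plasma cell markers (Xbp1 and Irf4 among them) above that median and 0 of 6 fibroblast markers. B cell markers gave 4 of 6, T cell markers 2 of 5, neuron markers 2 of 5 and myeloid markers 1 of 6. The Pax5 probe set averaged 4.96 with PAX5-P80R, 4.88 with PAX5-G183V, 4.64 with PAX5-G183S, 5.14 with PAX5-Δ2-6, 4.77 with PAX5-WT and 4.47 with MIR. It is unknown here which stretch of the transcript it reads and whether the constructs carry that stretch, so it does not check the labels. RNA was isolated in 2 batches and arrays were run on 2 plates, and PAX5-P80R and PAX5-Δ2-6 were on plate 2 alone. Isolation batch 1 took transductions 1 to 9 for the P80R, G183V and Δ2-6 constructs and 34 to 44 for the others. Isolation batch 2 took 46 to 57 and 58 to 66 in the same way, with PAX5-G183S replicate 4 from transduction 45. A comparison between these sets of constructs therefore also runs between series of transductions, and construct and series cannot be told apart there.

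The Camk2d promoter is shown because Camk2d is the member whose level followed the constructs. RefSeq places it at chr3:126596701-126597000 on the plus strand of GRCm38.p6, where the window of 300 bases holds 250 bases before the annotated start and, in capitals, the 50 bases from the start onward.

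Camk2d: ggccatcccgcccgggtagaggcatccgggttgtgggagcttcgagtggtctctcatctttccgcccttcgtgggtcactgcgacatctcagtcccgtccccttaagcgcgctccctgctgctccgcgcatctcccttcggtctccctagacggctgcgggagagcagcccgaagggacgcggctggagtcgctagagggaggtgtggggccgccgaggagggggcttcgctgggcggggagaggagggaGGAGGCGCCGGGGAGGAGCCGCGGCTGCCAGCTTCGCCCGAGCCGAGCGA

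This window is 70.3% G or C and holds 31 CG steps, against medians of 52.7% and 7 over 32851 RefSeq promoters of the same length. It was searched on both strands for 4 words that form a core of the sites the PAX5 paired domain binds. The first word was GCGTGAC and the second one searched was GCGTAAC. The third word was GCGGGAC and the last one searched for was GCGGAAC. None of the 4 words is in the Camk2d window, and 10.9% of all promoters hold at least 1. RefSeq promoters were matched for 6 of the 9 genes, and those of Camkk2 and Camkk1 hold a word. A match or its absence describes the letters of this window only.

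Camk2d had high signals in all cells with PAX5-WT, PAX5-G183V or PAX5-G183S and low signals in cells with PAX5-P80R, PAX5-Δ2-6 or MIR. In probe set 1427763_PM_a_at the lowest, median and highest array were 6.90, 7.09 and 7.45 with PAX5-P80R and 6.44, 6.88 and 7.16 with PAX5-Δ2-6. They were 8.29, 8.95 and 9.17 with PAX5-G183V and 8.30, 8.51 and 8.74 with PAX5-G183S. They were 8.50, 8.77 and 9.18 with PAX5-WT and 6.80, 7.01 and 7.21 with MIR. The arrays thus formed a high set of 3 constructs and a low set with no array in between. The means were 7.13 ± 0.24 with PAX5-P80R, 8.74 ± 0.38 with PAX5-G183V, 8.52 ± 0.16 with PAX5-G183S, 6.86 ± 0.24 with PAX5-Δ2-6, 8.80 ± 0.26 with PAX5-WT and 7.02 ± 0.14 with MIR (SD). In bulk RNA, more RNA per cell and more cells that make it cannot be told apart.

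A second Camk2d probe set, 1422659_PM_at, gave the same order of the 6 means. Its lowest, median and highest array were 4.31, 4.38 and 4.95 with PAX5-P80R and 3.78, 4.24 and 4.88 with PAX5-Δ2-6. They were 5.70, 6.85 and 7.42 with PAX5-G183V and 5.77, 6.58 and 7.07 with PAX5-G183S. They were 6.29, 6.69 and 7.21 with PAX5-WT and 3.85, 4.32 and 4.81 with MIR. From highest to lowest mean, both probe sets ran PAX5-WT, PAX5-G183V, PAX5-G183S, PAX5-P80R, MIR and PAX5-Δ2-6. Of the neighbours in this order, the arrays of PAX5-G183S and PAX5-P80R did not overlap, and every other neighbouring pair overlapped.

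Set against MIR with plate and isolation batch as terms, Camk2d 1427763_PM_a_at differed by 0.15 ± 0.13 with PAX5-P80R, 1.70 ± 0.12 with PAX5-G183V, 1.48 ± 0.12 with PAX5-G183S, -0.12 ± 0.13 with PAX5-Δ2-6 and 1.78 ± 0.12 with PAX5-WT on the log2 scale (± SE). The 3 large differences are 3.24-fold, 2.79-fold and 3.44-fold. In 1422659_PM_at the same differences were 0.27 ± 0.21 with PAX5-P80R, 2.19 ± 0.19 with PAX5-G183V, 2.12 ± 0.19 with PAX5-G183S, -0.00 ± 0.21 with PAX5-Δ2-6 and 2.41 ± 0.19 with PAX5-WT, the last being 5.30-fold. These 5 comparisons share the MIR arrays. By size of the PAX5-WT difference, 1422659_PM_at stood 20th and 1427763_PM_a_at 30th from the top of 45037 probe sets. Over all probe sets, 0.899% had every PAX5-WT array above every MIR array, 0.839% every PAX5-G183S array and 1.07% every PAX5-G183V array. Camk2d was chosen for this pattern, so nothing is read from these shares.

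Set against PAX5-WT, Camk2d 1427763_PM_a_at differed by -1.63 ± 0.13 with PAX5-P80R and by -1.90 ± 0.13 with PAX5-Δ2-6. All arrays of both constructs lay below all PAX5-WT arrays, as they did in 0.835% and 1.31% of all probe sets. PAX5-G183S differed from PAX5-WT by -0.30 ± 0.12 and PAX5-G183V by -0.08 ± 0.12, and both overlapped with it. Between altered constructs, PAX5-G183V minus PAX5-Δ2-6 was 1.81 ± 0.13, PAX5-P80R minus PAX5-G183V was -1.54 ± 0.13 and PAX5-P80R minus PAX5-Δ2-6 was 0.27 ± 0.13. The first 2 of these pairs did not overlap, as in 1.21% of all probe sets higher and 0.699% lower, and the last did.

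The Camk2d probe sets disagreed at low signal. In 1456844_PM_at the means were 3.85 ± 0.17 with PAX5-P80R, 4.15 ± 0.18 with PAX5-G183V, 4.14 ± 0.25 with PAX5-G183S, 3.71 ± 0.32 with PAX5-Δ2-6, 4.35 ± 0.16 with PAX5-WT and 3.78 ± 0.12 with MIR (SD). The order was that of the brighter probe sets, but only the PAX5-WT arrays all lay above the MIR arrays, by 0.56 ± 0.11 (SE). In 1459457_PM_at the means lay between 3.80 with PAX5-G183V and 4.08 with PAX5-WT, against 3.94 with MIR, and all groups overlapped with MIR. Across the 40 arrays, after removal of batch effects, the brightest probe set correlated with 1422659_PM_at at r = 0.97, with 1456844_PM_at at r = 0.78 and with 1459457_PM_at at r = -0.12. These are descriptions of probe sets read on the same arrays.

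**Figure D1:**
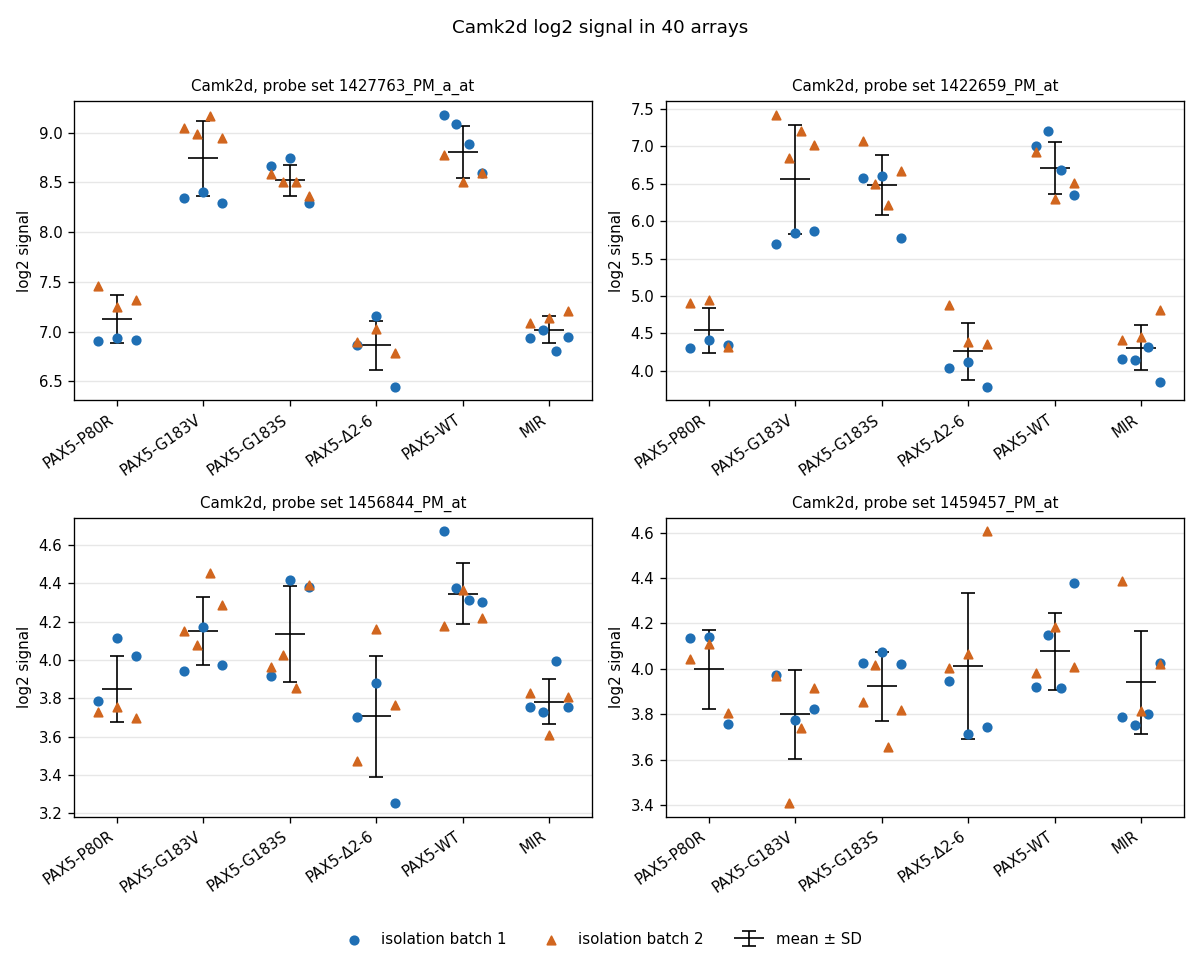
Log2 signal of the 4 Camk2d probe sets (vertical axis, own scale per panel) in each array of the 6 groups (horizontal axis); points are arrays, marked by isolation batch, and bars are mean ± SD. In the upper 2 panels PAX5-G183V, PAX5-G183S and PAX5-WT lie above all other arrays, PAX5-G183V splits by isolation batch, and the lower right panel shows no such pattern.

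Within PAX5-G183V, Camk2d differed between the isolation batches. The 3 arrays of isolation batch 1 lay between 8.29 and 8.40 in 1427763_PM_a_at and the 4 arrays of isolation batch 2 between 8.95 and 9.17. The PAX5-WT arrays lay between 8.59 and 9.18 in isolation batch 1 and between 8.50 and 8.77 in isolation batch 2. PAX5-G183V minus PAX5-WT was therefore -0.63 in isolation batch 1 and 0.42 in isolation batch 2, with every PAX5-G183V array below PAX5-WT in the first batch and above it in the second. The pooled difference of -0.08 averages 2 opposite values. In 1422659_PM_at the batch values were -1.07 and 0.56, against -0.22 over both. There the arrays overlapped in isolation batch 2, at 6.85 to 7.42 with PAX5-G183V and 6.29 to 6.93 with PAX5-WT. The share of all probe sets without overlap in a single batch is not given here.

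The split between the high and the low constructs was present in each isolation batch. In 1427763_PM_a_at the difference from MIR was 1.38 and 1.89 with PAX5-G183V (isolation batches 1 and 2), 1.60 and 1.35 with PAX5-G183S and 2.01 and 1.48 with PAX5-WT. It was 0.12 and 0.20 with PAX5-P80R and 0.02 and -0.24 with PAX5-Δ2-6. In isolation batch 2 the PAX5-P80R arrays, at 7.25 to 7.45, lay above the MIR arrays, at 7.09 to 7.21, and in isolation batch 1 they overlapped, at 6.90 to 6.94 against 6.80 to 7.01. In 1422659_PM_at they overlapped in isolation batch 2, at 4.31 to 4.95 with PAX5-P80R and 4.42 to 4.81 with MIR. The share of all probe sets without such overlap in 1 batch is not given, so nothing is read from the gap. On plate 2, which holds all groups, the difference was 0.10 with PAX5-P80R, 1.73 with PAX5-G183V, 1.32 with PAX5-G183S, -0.17 with PAX5-Δ2-6 and 1.70 with PAX5-WT.

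Of the 6 measured B cell markers (Cd79a, Cd79b, Ms4a1, Cd22, Blnk and Ebf1), Ms4a1 alone moved with Camk2d. Their summed log2 signal lay between 37.4 and 38.5 with PAX5-P80R, 42.0 and 43.7 with PAX5-G183V, 42.0 and 44.0 with PAX5-G183S, 37.6 and 39.2 with PAX5-Δ2-6, 42.5 and 44.2 with PAX5-WT and 37.3 and 38.3 with MIR. Without Ms4a1 the sum of the other 5 overlapped in all groups, with medians from 34.0 with PAX5-P80R to 34.4 with PAX5-Δ2-6, against 34.2 with MIR. Ms4a1 rose against MIR by 4.98 ± 0.28 with PAX5-G183V, 4.99 ± 0.28 with PAX5-G183S and 5.29 ± 0.28 with PAX5-WT (SE; limma adjusted p from 5.03e-17 to 7.19e-16), and none of the other 5 markers passed with any construct. Of the 6 markers 4 had a mean above the median of all probe sets, and Cd22 and Ebf1 did not. The sums of the 5 measured neuron markers overlapped in all groups, from 18.6 to 20.3.

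Camk2a, the CaMKII subunit best known from forebrain neurons, was the one other member with probe sets that passed the test. Its calls against MIR were falls with PAX5-G183V and PAX5-G183S, where Camk2d was high. With PAX5-WT, where Camk2d had its highest mean, no Camk2a probe set passed. In probe set 1457311_PM_at the lowest, median and highest array were 7.84, 7.98 and 8.06 with PAX5-P80R and 7.78, 7.93 and 8.26 with PAX5-Δ2-6. They were 7.36, 7.58 and 7.67 with PAX5-G183V and 7.35, 7.48 and 8.15 with PAX5-G183S. They were 7.36, 7.72 and 8.13 with PAX5-WT and 7.63, 7.90 and 8.29 with MIR. PAX5-G183V was low in every array, whereas PAX5-G183S, PAX5-WT and MIR spread widely and overlapped with it.

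With PAX5-G183V, 3 of the 22 probe sets fell against MIR, all of Camk2a, and 0 rose, where 2.43% of all probe sets fell and 5.73% were called. Camk2a 1457311_PM_at averaged 7.56 ± 0.10 with PAX5-G183V and 7.96 ± 0.27 with MIR (SD, n = 7 each), a fitted difference of -0.44 ± 0.09 (SE; limma adjusted p = 0.00189). Camk2a 1443876_PM_at averaged 4.39 ± 0.28 with PAX5-G183V and 4.87 ± 0.26 with MIR, a difference of -0.51 ± 0.13 (adjusted p = 0.0105 by limma). Camk2a 1437125_PM_at averaged 5.65 ± 0.19 with PAX5-G183V and 6.02 ± 0.23 with MIR, a difference of -0.42 ± 0.13 (adjusted p = 0.0449 by limma). The arrays of both groups overlapped in all 3 probe sets. The other 3 Camk2a probe sets did not pass, with -0.21 ± 0.10 in 1442707_PM_at, 0.06 ± 0.08 in 1441734_PM_at and -0.05 ± 0.06 in 1452453_PM_a_at. Over all arrays these 3 averaged 4.66, 4.64 and 3.54, beside a median of 4.22 for all probe-set means. The called 1443876_PM_at averaged 4.65, 1437125_PM_at 5.87 and 1457311_PM_at 7.81, so the Camk2a probe sets differed widely in level.

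The Camk2a call with PAX5-G183V was present in isolation batch 2 alone and absent in isolation batch 1 alone, and the difference between batches was not tested. In 1457311_PM_at the 4 PAX5-G183V arrays of isolation batch 2 lay between 7.36 and 7.67, against 8.17 to 8.29 in the 3 MIR arrays, a difference of -0.73 (limma adjusted p = 0.00121). In isolation batch 1 the 3 PAX5-G183V arrays lay between 7.58 and 7.66, against 7.63 to 7.90 in the 4 MIR arrays, a difference of -0.15 (adjusted p = 0.608 by limma). MIR itself averaged 7.75 in isolation batch 1 and 8.24 in isolation batch 2, and PAX5-WT 7.53 and 8.05. The 2 other called probe sets gave -0.16 and -0.22 in isolation batch 1 and -0.81 and -0.55 in isolation batch 2 (1443876_PM_at and 1437125_PM_at). Isolation batch 1 alone therefore had 0 of 22 calls by limma and isolation batch 2 alone had 2. The share of all probe sets called in each batch alone is not given here, so nothing is read from these counts. The call of 1437125_PM_at was lost on leaving out any 1 of 11 of the 14 arrays, with adjusted p up to 0.123 by limma.

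With PAX5-G183S, 1 of the 22 probe sets fell against MIR and 0 rose, where 1.48% of all probe sets fell and 3.73% were called. It was Camk2a 1457311_PM_at, at 7.69 ± 0.33 with PAX5-G183S and 7.96 ± 0.27 with MIR (SD, n = 7 each), with a fitted difference of -0.31 ± 0.09 (SE; limma adjusted p = 0.0481). This call was lost on leaving out any 1 of 10 arrays (MIR replicates 1, 2, 5, 6 and 7 and PAX5-G183S replicates 1 to 5), with differences of -0.33 to -0.26 and adjusted p up to 0.132 by limma. It was -0.34 in isolation batch 1, -0.36 in isolation batch 2 and -0.08 on plate 2 alone (adjusted p = 0.925 by limma on plate 2).

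Between altered constructs, Camk2a 1457311_PM_at was the single call in 2 comparisons. PAX5-G183V minus PAX5-Δ2-6 was -0.43 ± 0.10 (limma adjusted p = 0.0121) in a comparison where 1.02% of all probe sets fell and 3.08% were called. PAX5-P80R minus PAX5-G183V was 0.43 ± 0.10 (adjusted p = 0.0155 by limma), where 1.13% rose and 2.72% were called. All PAX5-G183V arrays lay below all PAX5-Δ2-6 and all PAX5-P80R arrays; 0.775% of all probe sets did so against PAX5-Δ2-6, and in 0.635% PAX5-P80R lay wholly above PAX5-G183V. Both comparisons are between constructs from the same stretches of transductions (1 to 9 and 46 to 57), and they share the PAX5-G183V arrays. Without PAX5-G183V replicate 7 the differences were -0.35 (adjusted p = 0.0701 by limma) and 0.35 (adjusted p = 0.0792 by limma), and without PAX5-G183V replicate 6 the second was 0.39 (adjusted p = 0.0521 by limma). In isolation batch 1 alone they were -0.23 and 0.32, and neither passed (limma adjusted p = 0.388 and 0.224). In isolation batch 2 alone the first passed at -0.55 (limma adjusted p = 0.0311) and the second, at 0.46, did not (0.0734). Without batch terms neither passed (limma adjusted p = 0.079 and 0.096).

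**Figure D2:**
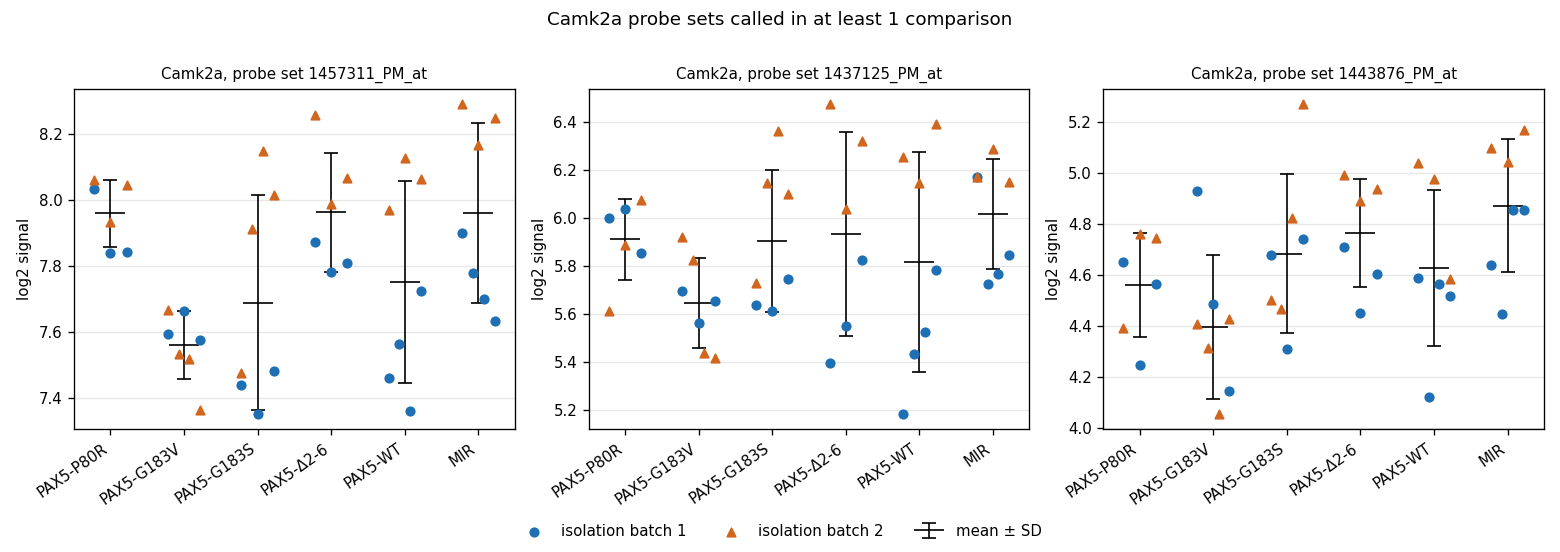
Log2 signal of the 3 Camk2a probe sets called in at least 1 comparison (vertical axis, own scale per panel) in each array of the 6 groups (horizontal axis); points are arrays marked by isolation batch, and bars are mean ± SD. PAX5-G183V has the lowest mean in every panel, and MIR and PAX5-WT arrays of isolation batch 2 sit mostly above those of isolation batch 1.

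In the 8 other comparisons limma called 0 of the 22 probe sets. With PAX5-P80R minus MIR, where 2.56% of all probe sets were called and 13.3% had an unadjusted p under 0.05, 1 of 22 had such a p: Camk2a 1443876_PM_at at -0.35 ± 0.14 (limma adjusted p = 0.233). With PAX5-WT minus MIR, where 3.86% were called and 13.7% had such a p, it was also 1 of 22: Camk2a 1457311_PM_at at -0.21 ± 0.09 (adjusted p = 0.291 by limma). With PAX5-Δ2-6 minus MIR limma called 0% of the 45037 probe sets, 3180 had an unadjusted p under 0.05, and 1 of the 22 was among them. Against PAX5-WT, where limma called 4.09% of all probe sets with PAX5-P80R, 0.0289% with PAX5-G183V, 0.0333% with PAX5-G183S and 4.27% with PAX5-Δ2-6, it called none of the 22. At an unadjusted p under 0.05 there were 0 of 22 with PAX5-P80R beside 16.3% of all probe sets, 3 with PAX5-G183V beside 10%, 2 with PAX5-G183S beside 5.24% and 1 with PAX5-Δ2-6 beside 15.1%. With PAX5-P80R minus PAX5-Δ2-6 1.78% of all probe sets were called, and 2 of 22 had an unadjusted p under 0.05, beside 10.6% of all. The median difference of the 22 probe sets lay between -0.06 and 0.08 in the 12 comparisons, beside medians within 0.01 of 0 for all probe sets. In each fit run, with whatever arrays or settings, the probe sets called among the 22 were those of Camk2a.

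Camk2g, a CaMKII subunit of many tissues, had signals well above the array medians in every group and no call. Over the 40 arrays 1423941_PM_at lay between 7.84 and 8.33, and its group means were 8.08 with PAX5-P80R, 8.11 with PAX5-G183V, 7.99 with PAX5-G183S, 8.10 with PAX5-Δ2-6, 7.98 with PAX5-WT and 8.00 with MIR. Its largest difference from MIR was 0.10 ± 0.05 with PAX5-G183V (limma adjusted p = 0.317). In 1423942_PM_a_at the arrays lay between 6.60 and 7.45, and the largest difference from MIR was 0.15 ± 0.10, again with PAX5-G183V (adjusted p = 0.427 by limma). Camk2b, the CaMKII subunit that binds actin, had 1 probe set with signals from 3.38 to 4.17. Its differences from MIR lay between -0.06 with PAX5-G183S and 0.19 ± 0.10 with PAX5-P80R (adjusted p = 0.471 by limma).

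The kinases downstream of the cascade stayed at low signals in all groups. Camk1 lay between 3.51 and 4.38 in 1417605_PM_s_at and between 3.18 and 4.08 in 1417604_PM_at. Its differences from MIR ran from -0.17 ± 0.09 with PAX5-G183S to 0.13 ± 0.12 with PAX5-Δ2-6, and none passed. Camk1d, a relative of Camk1, had 3 probe sets between 3.11 and 3.98, with a largest difference of -0.20 ± 0.09 in 1452050_PM_at with PAX5-G183V (limma adjusted p = 0.214). Camk4, a nuclear kinase of T cells and neurons that phosphorylates CREB, had 4 probe sets between 2.92 and 3.75. Its largest difference was 0.20 ± 0.08 in 1441974_PM_at with PAX5-G183S (adjusted p = 0.185 by limma). The deposited values carry no detection call, so a change in a gene at such low signals may not have been detectable.

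Camkk2, the upstream kinase that also activates AMP-activated kinase, had 4 probe sets and no call. In 1424474_PM_a_at the arrays lay between 4.74 and 6.06, with means of 5.27 ± 0.34 with PAX5-P80R, 5.41 ± 0.37 with PAX5-G183V, 5.38 ± 0.18 with PAX5-G183S, 5.21 ± 0.29 with PAX5-Δ2-6, 5.29 ± 0.24 with PAX5-WT and 5.23 ± 0.36 with MIR (SD). The largest difference from MIR was 0.21 ± 0.14 with PAX5-G183V (limma adjusted p = 0.438). The other 3 probe sets differed from MIR by between -0.18 ± 0.10 in 1424476_PM_at with PAX5-Δ2-6 (adjusted p = 0.738 by limma) and 0.04. Over the 22 probe sets the median SE of a difference from MIR was between 0.09 and 0.10 in the 5 comparisons, which sets the size of difference that could be detected.

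**Figure D3:**
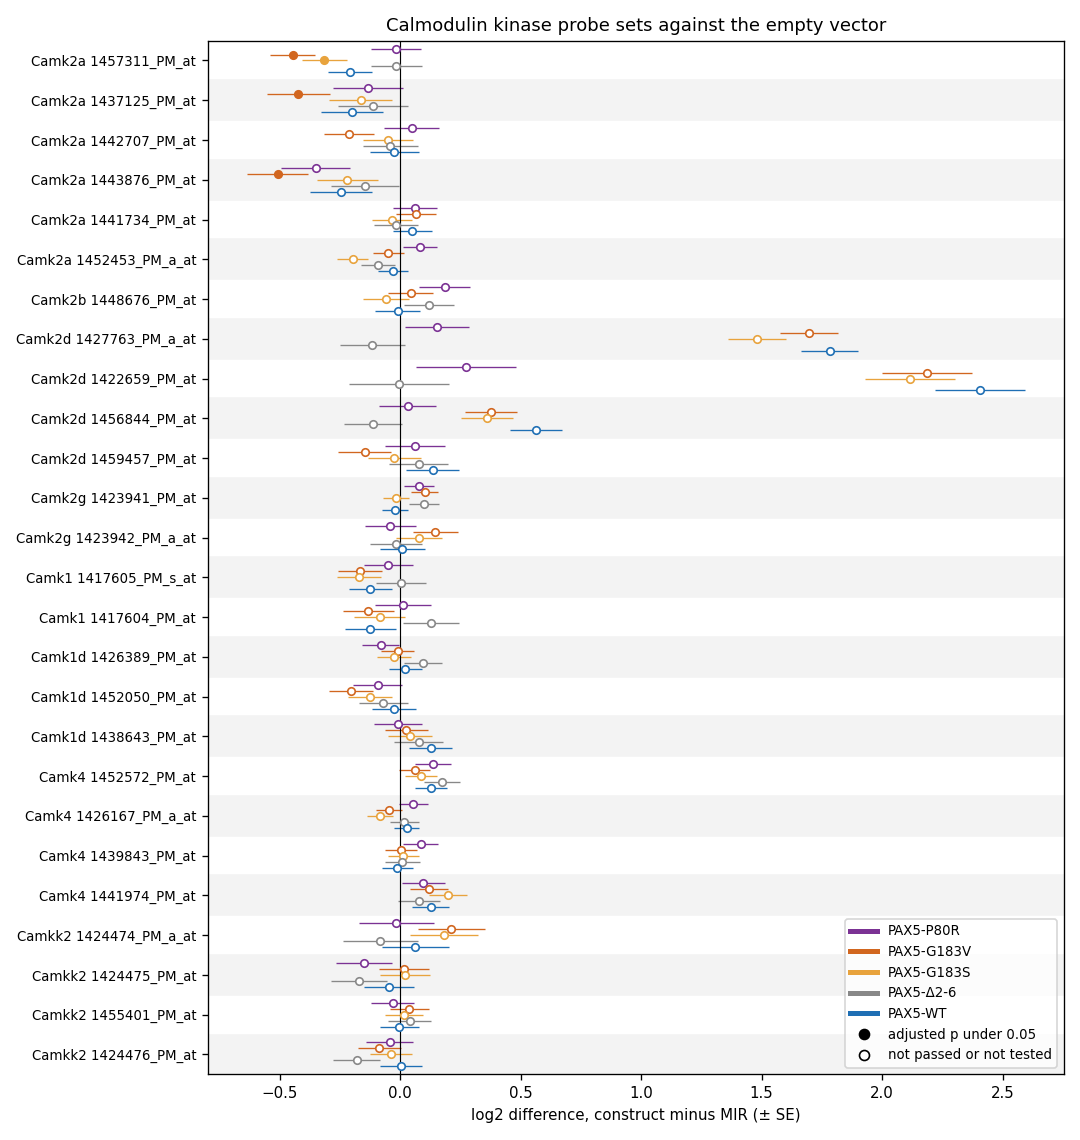
Fitted log2 difference from MIR (horizontal axis, ± SE) of all 26 probe sets (rows) for the 5 constructs (colours); filled points passed limma at an adjusted p under 0.05, open points did not or, for Camk2d, were not tested. The 2 brighter Camk2d probe sets stand at 1.48 to 2.41 with PAX5-G183V, PAX5-G183S and PAX5-WT, and the filled points are those of Camk2a at -0.51 to -0.31.

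Genes around the kinases were read from 6 lists of 55 genes (calmodulin, inhibitors and phosphatases of the kinases, other calmodulin-regulated kinases, calcineurin and NFAT, calcium entry, release and pumps, and substrates), of which 51 were measured. With PAX5-WT minus MIR 4 of 51 rose and 0 fell, where 2.18% of all probe sets rose. Each list gene is read by its probe set with the highest mean. The shares, here and for the lists below, are over all probe sets, dim ones and those without a gene included. Count and share are therefore not like for like, and no excess is read from them. Hdac9, a class II histone deacetylase that calmodulin kinases drive out of the nucleus, averaged 7.26 ± 0.35 with PAX5-WT and 6.45 ± 0.29 with MIR (SD), a difference of 0.81 ± 0.15 (SE; limma adjusted p = 0.000531). Dapk2, a calmodulin-regulated kinase of cell death, rose by 0.38 ± 0.11, Creb1, the CREB transcription factor, by 0.25 ± 0.06 and Mef2c, a transcription factor held down by class II deacetylases, by 0.24 ± 0.06. Substrates thus gave 3 of 15 measured genes, other calmodulin-regulated kinases 1 of 7 and the other lists 0. The median of the 51 was 0.08, beside 0.00 over all probe sets.

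With PAX5-G183S 8 of 51 rose against MIR and 0 fell, where 2.25% of all probe sets rose. Hdac9 averaged 7.34 ± 0.51 with PAX5-G183S and rose by 0.87 ± 0.15 (limma adjusted p = 0.00023). Ppm1e, a phosphatase that turns calmodulin kinases off, rose by 0.61 ± 0.12, Eef2k, the calmodulin-dependent kinase of elongation factor 2, by 0.52 ± 0.10 and Dapk2 by 0.51 ± 0.11. With PAX5-G183V, where 3.3% of all probe sets rose, 4 rose and 0 fell: Dapk2 by 0.66 ± 0.11 (adjusted p = 9.28e-05 by limma), Ppm1e by 0.51 ± 0.12, Eef2k by 0.51 ± 0.10 and Creb1 by 0.21 ± 0.06. Against MIR limma called 0 of 51 with PAX5-P80R, where it called 2.56% of all probe sets. With PAX5-Δ2-6 it also called 0 of 51, where it called 0% of all probe sets. The medians of the 51 were 0.04, 0.04, 0.02 and 0.01 for these 4 constructs in this order.

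Against PAX5-WT, 3 of 51 fell with PAX5-P80R and 0 rose, where 2.36% of all probe sets fell. Hdac9 averaged 6.37 ± 0.21 with PAX5-P80R and 7.26 ± 0.35 with PAX5-WT, with a fitted difference of -1.04 ± 0.17 (limma adjusted p = 0.000105). Creb1 fell by 0.32 ± 0.07 on the log2 scale and Plcg2, the phospholipase that releases calcium after the B cell receptor is bound, fell by 0.19 ± 0.05. With PAX5-Δ2-6, where 2.58% of all probe sets fell, 4 fell and 0 rose. Hdac9 averaged 6.14 ± 0.13, with a fitted difference of -1.28 ± 0.17 (adjusted p = 1.94e-06 by limma). The others were Mef2c at -0.34 ± 0.07, Creb1 at -0.29 ± 0.07 and Atp2a2, the calcium pump of the endoplasmic reticulum, at -0.24 ± 0.06. These fitted differences of Hdac9 include the plate and isolation batch terms and are larger than those between the plain means. With PAX5-G183V minus PAX5-Δ2-6, where 2.06% of all probe sets rose, 5 rose and 0 fell, Hdac9 by 0.85 ± 0.17 the most. With PAX5-P80R minus PAX5-G183V, where 1.59% fell, 2 fell and 0 rose, Hdac9 at -0.61 ± 0.17 (adjusted p = 0.0388 by limma) and Creb1 at -0.28 ± 0.07. In the 3 remaining comparisons limma called 0 of 51. Of all probe sets it called 0.0333% for PAX5-G183S minus PAX5-WT, 0.0289% for PAX5-G183V minus PAX5-WT and 1.78% for PAX5-P80R minus PAX5-Δ2-6. Each called gene had the same sign in both isolation batches, but not all passed in 1 batch alone. Against MIR, isolation batch 1 and isolation batch 2 kept 0 and 2 of the 4 genes with PAX5-G183V, 2 and 3 of the 8 with PAX5-G183S and 3 and 0 of the 4 with PAX5-WT. Against PAX5-WT they kept 1 and 3 of the 3 with PAX5-P80R and 2 and 3 of the 4 with PAX5-Δ2-6. They kept 2 and 2 of the 5 for PAX5-G183V minus PAX5-Δ2-6 and 0 and 1 of the 2 for PAX5-P80R minus PAX5-G183V. Single batches hold fewer arrays, and the share of all probe sets that each kept is not given here.

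The genes with the pattern most like Camk2d were found by Pearson's r with 1427763_PM_a_at over the 40 arrays after removal of plate and isolation batch effects, among 17096 other genes with 1 probe set each. The 5 highest were Ms4a1, a B cell surface antigen (r = 0.98), Cd36, a fatty acid receptor (0.97), Siglecg, an inhibitory sialic acid receptor (0.97), Swap70, a signalling adaptor of B cells (0.96), and Fcgr2b, the inhibitory Fc receptor (0.96). The 5 lowest were Slc39a14, a zinc transporter (-0.93), Cnn2, a calponin (-0.93), Rgcc, a regulator of the cell cycle (-0.92), Ly6c1, a surface antigen (-0.91), and Cd44, the hyaluronan receptor (-0.91). Over all genes 19 had r above 0.9 and 5 below -0.9. Groups carry most of this: within groups r was 0.78 for Ms4a1, 0.60 for Cd36, 0.77 for Siglecg, 0.57 for Swap70 and 0.66 for Fcgr2b. The points share 1 cell line, 1 array type and 1 normalization, so these values describe likeness only.

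The sizes of the differences were not alike even where the pattern was. With PAX5-P80R minus MIR Fcgr2b stood at 1.39 and Cd36 at 0.64, against 0.17 for Ms4a1 and 0.06 for Swap70, beside 0.15 for Camk2d. With PAX5-WT minus MIR Fcgr2b stood at 4.85, Cd36 at 6.32, Ms4a1 at 5.29 and Swap70 at 0.67, beside 1.78 for Camk2d. Among the other calmodulin kinases r with Camk2d ran from -0.71 for Camk2a 1457311_PM_at to 0.28 for Camk4 1441974_PM_at. Within groups the Camk2a value was -0.61, and that of Camk2a 1437125_PM_at was -0.70, against -0.51 over all arrays. All within-group values, here and above, were taken after removal of group means and of batch effects shared by all groups. Batch differences particular to a group, such as those of PAX5-G183V, remain in these values.

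**Figure D4:**
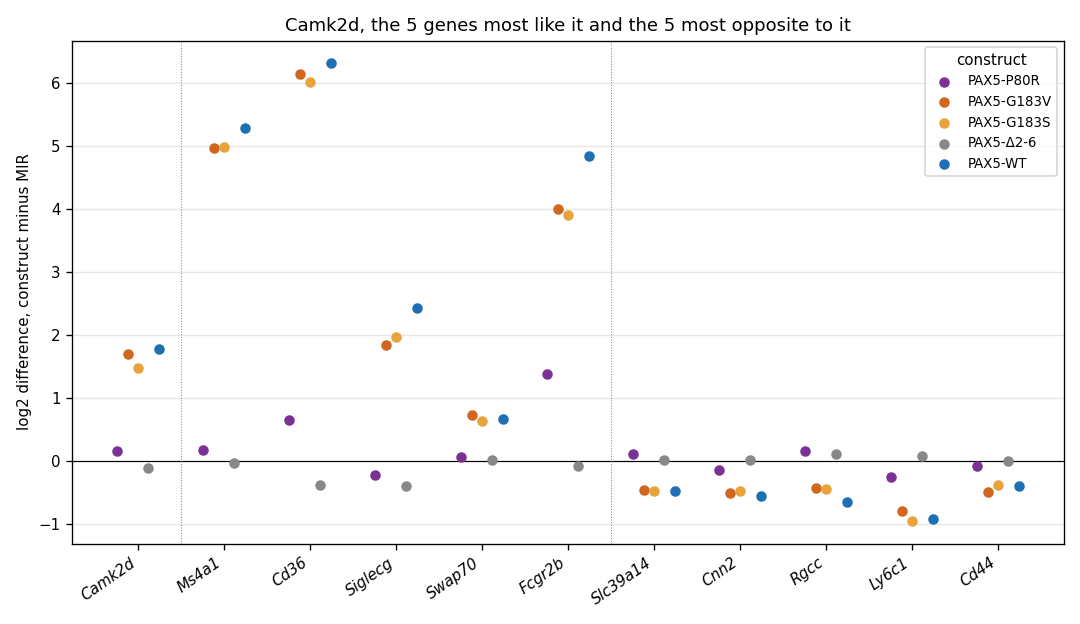
Fitted log2 difference from MIR (vertical axis) with each of the 5 constructs (colours) for Camk2d 1427763_PM_a_at, the 5 genes with the highest r with it and the 5 with the lowest (horizontal axis, parted by dotted lines). PAX5-G183V, PAX5-G183S and PAX5-WT lie together and away from 0, PAX5-Δ2-6 lies between -0.39 and 0.12, and PAX5-P80R stands highest in Fcgr2b, at 1.39, and Cd36, at 0.64.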

How the data were processed

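The authors deposited 1 log2 signal per probe set and array, and the submitters' processing notes name RMA, without a version. A genome build was not given in the sources used here. RMA quantile-normalizes the arrays, which removes global shifts, and compresses differences at low signal. Labelling followed the 3' IVT Express protocol per the labels, so probe sets read the 3' ends of transcripts. The log2 values were used as deposited. Of 45141 probe sets 104 control probe sets were left out, and of the other 45037, 28898 name 1 gene, 551 several and 15588 none in the platform annotation, which can be old. A gene outside the kinases was read by its probe set with the highest mean.

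R 4.3.3 with limma 3.58.1 (statmod 1.5.0 for random blocks) fitted each probe set with terms for 6 groups, 2 plates and 2 isolation batches over all 40 arrays. P-values of 12 comparisons were adjusted over all 45037 probe sets (Benjamini-Hochberg), and a probe set was called at an adjusted p under 0.05. The closest pair of arrays had r = 0.9969, and 0 columns were identical. Precision is limited by the number of arrays: the median SE of PAX5-WT minus MIR was 0.08. On simulated data with 200 changed probe sets, 99% were recovered in that comparison. The sizes set there are not given here, so nothing is read from this share for the 22 probe sets. Recovery of differences as small as those of Camk2a was not tested.

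The kinases, the gene lists and the markers were chosen with earlier results of these data known. Up to 4 called list genes per comparison with the largest difference, and the 5 genes most and least like Camk2d, are named. Of the 55 listed genes 4 are not analysed here, and Igj was matched by its gene ID. Replicate numbers were not taken to pair the arrays: of 96 same-numbered pairs 43 had deviations that correlated above 0.1 (mean r 0.09), and 10 after removal of plate and isolation batch (mean r -0.04). Alternatives were no batch terms, single batches and plates, batch as a random block, a replicate block, transduction series, fits of 2 groups only, centring, repeated quantile normalization, a filter on dim probe sets, trend and robust settings, 1 probe set per gene and each array left out. The lists' values within batches were chosen after seeing the data.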

Additional observations from a re-analysis of the deposited data

Results flagged for a closer look

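Of 156 groups of arrays (26 probe sets in 6 groups), 11 had 1 array that stood apart from the others by Dixon's criterion, where about 1 in 20 groups, or 7.8, would do so by chance. In Camk2g 1423942_PM_a_at PAX5-P80R replicate 4 was at 6.60 and the other PAX5-P80R arrays lay between 7.06 and 7.12. In the same probe set MIR replicate 7 was at 7.16, above 6.83 to 6.93 in the other MIR arrays. In Camk2g 1423941_PM_at PAX5-G183S replicate 4, the array from the other transduction series, was at 8.20, above 7.90 to 8.02.

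Camk2b 1448676_PM_at was at 4.16 in PAX5-Δ2-6 replicate 3, above 3.62 to 3.75 in the other PAX5-Δ2-6 arrays, and at 4.17 in PAX5-WT replicate 3, above 3.38 to 3.70. Camk2d 1456844_PM_at was at 4.67 in PAX5-WT replicate 1, above 4.18 to 4.38. Camk2d 1459457_PM_at was at 3.41 in PAX5-G183V replicate 5, below 3.74 to 3.97, and at 4.39 in MIR replicate 5, above 3.75 to 4.03. Camk1d 1438643_PM_at was at 3.17 in PAX5-G183V replicate 6, below 3.42 to 3.55, and Camk1d 1426389_PM_at was at 3.56 in PAX5-WT replicate 7, below 3.71 to 3.81. Camk4 1439843_PM_at was at 2.99 in PAX5-Δ2-6 replicate 1, below 3.16 to 3.26. Camk2d was not tested, and limma called none of the other probe sets named here in any of the 12 comparisons.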

How the results depend on the processing

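The differences of PAX5-G183V, PAX5-G183S and PAX5-WT from MIR in Camk2d 1427763_PM_a_at were positive in every alternative run. Its differences moved by more than the spread between replicates in these cases. In isolation batch 1 alone PAX5-G183V minus MIR was 1.38, PAX5-G183V minus PAX5-WT -0.63, PAX5-P80R minus PAX5-WT -1.89, PAX5-G183V minus PAX5-Δ2-6 1.36 and PAX5-P80R minus PAX5-G183V -1.26. In isolation batch 2 alone PAX5-WT minus MIR was 1.48, PAX5-G183V minus PAX5-WT 0.42, PAX5-P80R minus PAX5-WT -1.27 and PAX5-G183V minus PAX5-Δ2-6 2.13. With the transduction series (1 to 9, 34 to 44 and 45 to 66) in place of the isolation batch, where the last series alone holds all 6 groups, PAX5-P80R minus MIR was 0.42, PAX5-Δ2-6 minus MIR 0.15, PAX5-P80R minus PAX5-WT -1.36 and PAX5-Δ2-6 minus PAX5-WT -1.63. The last series joins transductions 46 to 57 with 58 to 66, which that fit does not tell apart. The cause was not tested.

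With the replicate number as a block PAX5-P80R minus MIR was -0.12, PAX5-Δ2-6 minus MIR -0.39, PAX5-P80R minus PAX5-WT -1.91 and PAX5-Δ2-6 minus PAX5-WT -2.17, and the counts of called probe sets among the 22 were 0 for PAX5-G183S minus MIR, 0 for PAX5-G183V minus PAX5-Δ2-6 and 0 for PAX5-P80R minus PAX5-G183V. Of 40 arrays 22 correlated best with an array of their own number, and 5 after removal of plate and isolation batch.

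Among the 22 probe sets the 1 call for PAX5-G183S minus MIR became 0 without batch terms, in isolation batch 1, isolation batch 2 or plate 2 alone, with batch as a random block and with centred arrays, and 2 with the transduction series; it ranged from 0 to 2 with arrays left out. The 3 calls for PAX5-G183V minus MIR became 0 in isolation batch 1 and 1 on plate 2, where 1443876_PM_at alone passed. Camk2a 1437125_PM_at also did not pass without batch terms, in isolation batch 2 alone, with the random block and with the replicate block. Without batch terms 1457311_PM_at stood at -0.40 in this comparison (adjusted p = 0.049 by limma). The 1 call for PAX5-G183V minus PAX5-Δ2-6 became 0 without batch terms and in isolation batch 1 and 2 on plate 2, and ranged from 0 to 2 with arrays left out. The 1 call for PAX5-P80R minus PAX5-G183V became 0 without batch terms, in either isolation batch alone and with the random block, and ranged from 0 to 1 with arrays left out. PAX5-P80R minus PAX5-WT gave 1 call in isolation batch 1, and PAX5-G183V minus PAX5-WT gave 1 in isolation batch 2 and 1 with the transduction series, all of Camk2a 1457311_PM_at. Single batches hold fewer arrays, and the other causes were not tested. The share of all probe sets called in each alternative is not given here. A lower count may therefore go with fewer calls over all probe sets.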
